A study of Mus musculus with 15 samples.

Results

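The genes described here are those of the interferon response and the STAT transcription factors, in left ventricle of mice with or without the operation called TAC. They were chosen by a rule on gene names, set with earlier results of these data known. The rule took probe sets with a single gene symbol for a type I interferon of the alpha group, interferon gamma or their receptor chains. It also took STAT factors, interferon regulatory factors (Irf) and interferon-induced genes of the Ifi, Ifit, Ifitm, Gbp, Oas, Isg or Mx families. The rule found 59 of 12422 probe sets, for 51 genes. A further 7 probe sets carried such a symbol beside others and were not members. The series, on cardiac hypertrophy under pressure overload, holds 15 arrays in 4 groups: 3 female TAC, 3 male TAC, 3 female sham and 6 male sham hearts, the last 2 labelled as controls. TAC commonly stands for transverse aortic constriction, a narrowing of the aorta that raises the load on the left ventricle. The labels used here give no strain, genotype, age or time after the operation, and do not say whether arrays are from different animals. The p-values therefore reflect no more than the spread among arrays.

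Interferons are secreted proteins that alert cells to viral infection and tissue injury. Type I interferons bind a receptor made of Ifnar1 and Ifnar2, and interferon gamma binds a receptor made of Ifngr1 and Ifngr2. Janus kinases on these receptors phosphorylate STAT factors, which move to the nucleus and bind the interferon-stimulated response element, together with Irf9, or the gamma-activated site. The genes switched on there include Irf7, the IFIT and IFITM families and the guanylate-binding proteins. In heart muscle the same kinases serve Stat3, the factor downstream of interleukin 6 and related cytokines.

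Values are deposited probe-set intensities in arbitrary units, without a log. Of the 59 probe sets, 23 lay above an intensity of 20 on all 15 arrays, 21 on some and 15 on none. That value of 20 served as a floor for the tests, since 42.4% to 48.4% of an array's probe sets lay below it. The brightest 60% of all probe sets were tested, 7453 in all, and 36 members were among them, so 23 members were too dim to be tested. Because the filter uses all arrays, the 36 are not the whole set. Array medians lay between 21.2 and 26.7. Nppa and Acta1, the atrial natriuretic peptide and the skeletal actin of the loaded heart, passed the test for TAC (average log2 change 2.83 ± 0.22 SE, adjusted p = 1.29e-06, and 2.11 ± 0.14 SE, adjusted p = 3.55e-07, limma). All 7 cardiomyocyte markers on the array lay above the floor on every array, with summed intensities of 27684 to 34399.9 on TAC arrays and 27960 to 33346 on sham arrays. RNA came from whole tissue, in which fewer cells of a type and less RNA per cell cannot be told apart.

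**Figure D1:**
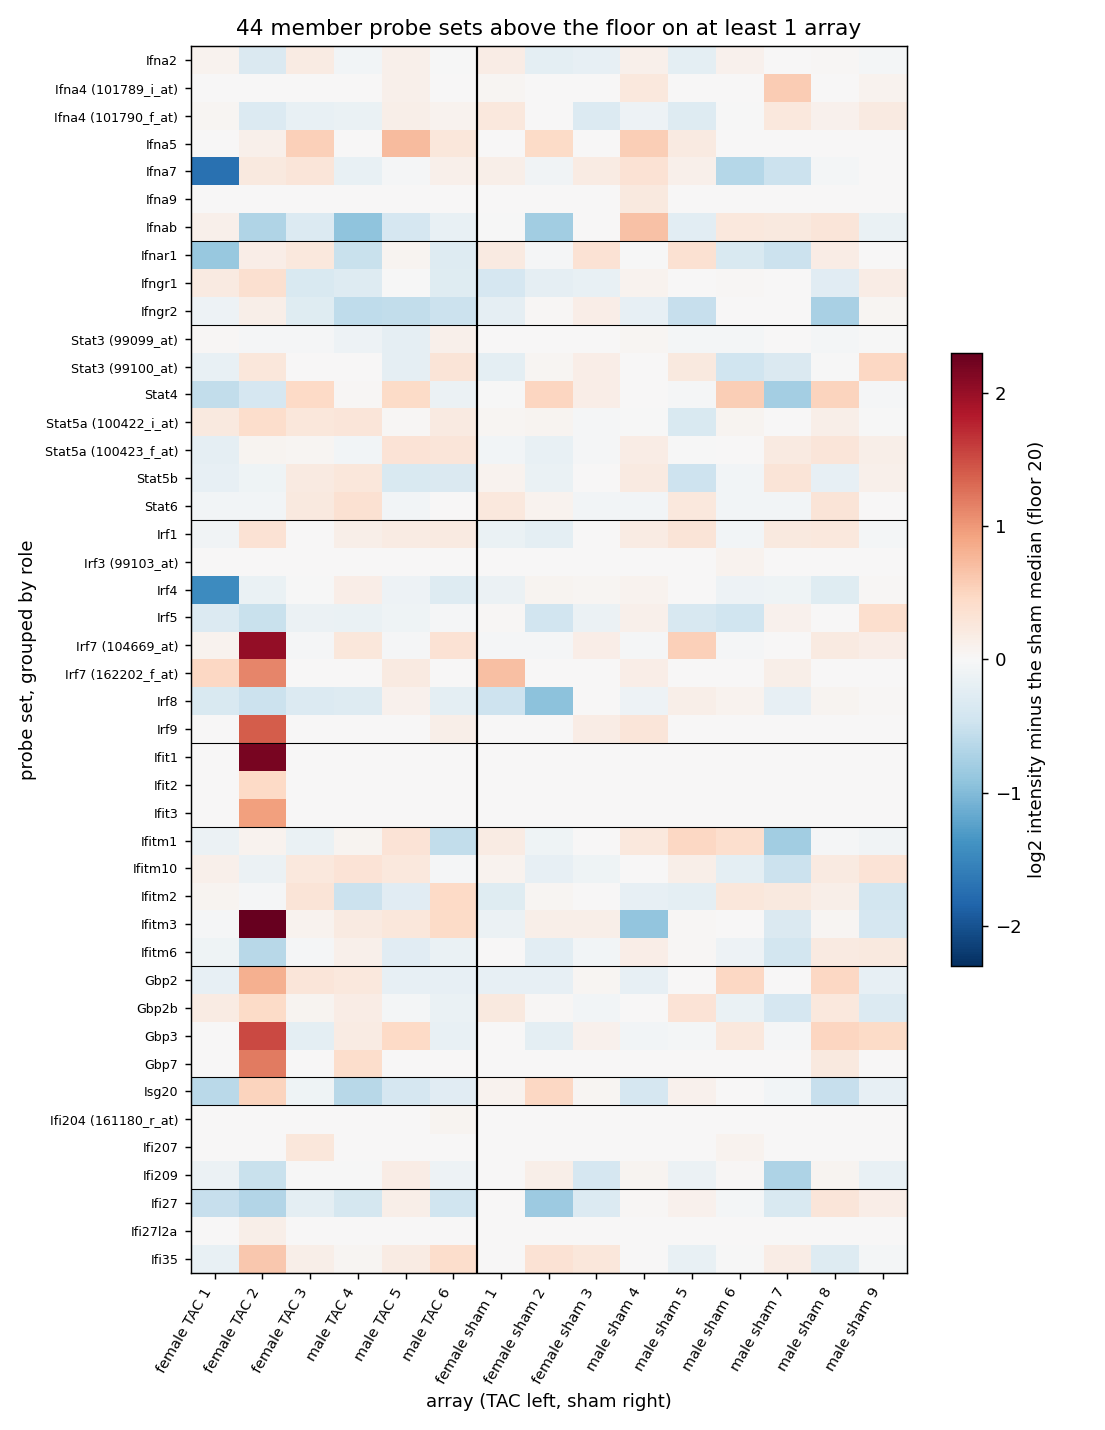
Intensity of each member probe set that exceeded the floor on at least 1 array, by array, as log2 of the floored intensity minus the median of the sham arrays (colour), with TAC arrays on the left and sham arrays on the right and lines between the roles. The column of female TAC 2 holds the strongest red cells, at Ifitm3, Ifit1 and Irf7, and no row separates the TAC from the sham arrays.

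No interferon-response or STAT gene passed the test between TAC and sham hearts. In the average over the sexes, 20 of the 36 tested members were higher and 16 lower in TAC hearts, with a median log2 change of 0.04, against -0.03 over all tested probe sets. None of the 36 had an adjusted p under 0.05 (limma), where 0.322% of all tested probe sets did. The smallest adjusted p of a member was 0.553. Without female TAC 2, the array described next, 16 members were higher, 19 lower and 1 without a change, with a median of -0.01 in place of 0.04. At an unadjusted p under 0.05 there were 2 members, Stat5a and Ifitm3, against 7.51% of all tested probe sets. That count depended on the processing and on single arrays. With array weights it was 5 (12.9% of all), and without the brightness filter 1 (5.09% of all). It was 7 without female TAC 3 (7.69% of all), 6 without female TAC 1 (8.09% of all) and 3 without female sham 2 or male sham 5. It was 1 without female TAC 2 (8.41% of all), male TAC 4, male TAC 5, female sham 1, female sham 3 or male sham 4. No member had all its TAC arrays above all sham arrays, where 0.255% of tested probe sets did, and none had all below, where 0.161% did. Several interferon-induced members were high on a single array instead. On the second female TAC array, here called female TAC 2, 7 of the 36 tested members reached at least 2 times the median of the other arrays, against 1.17% of all tested probe sets on that array, and no member did so on any other array. Intensities were floored at 20 before this ratio was taken. For at least Ifit1, Irf9 and Gbp7 among the 7, the median of the other arrays was the floor itself. Their ratios are therefore not to a measured level. Ifit1 was below the floor on every other array and so was tested only through female TAC 2. Among members above the floor on another array the count was 6 of 35, against 1.15% of such probe sets. Whether each of these 6 would pass the brightness filter without female TAC 2 was not tested. That array was singled out after its values were seen, so its counts are descriptions without a test.

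**Figure D2:**
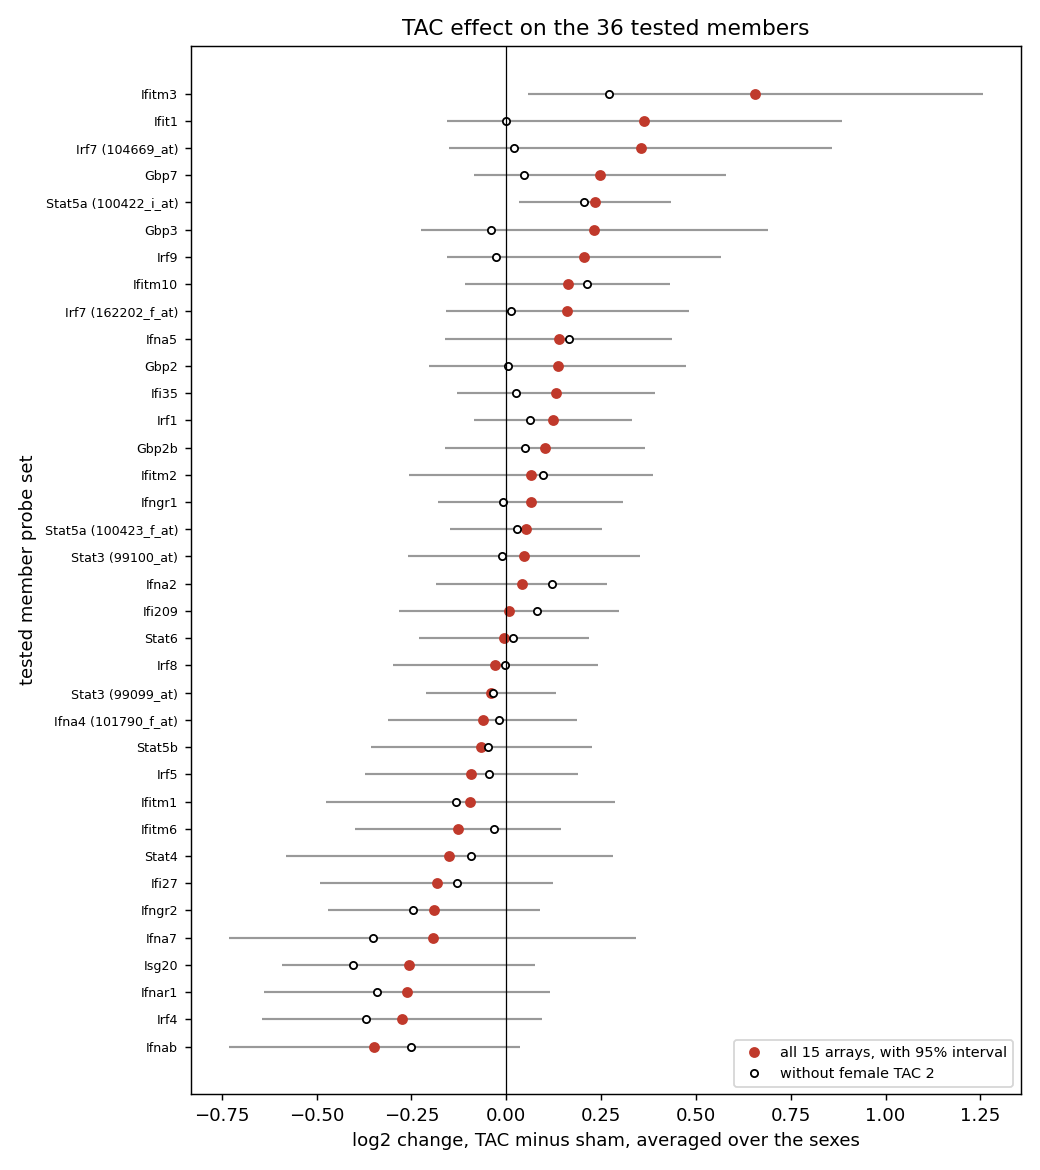
Average log2 change, TAC over sham, of the 36 tested members with 95% intervals, with all arrays and without female TAC 2. The changes ran from -0.35 to 0.66 with all arrays, and the highest, Ifitm3, stood at 0.27 without female TAC 2.

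The interferon genes themselves gave little signal. Ifng, which encodes interferon gamma, stayed below the floor on every array, with a highest value of 6.36. Of the 10 probe sets for interferons, 5 were tested, 2 were higher and 3 lower in TAC hearts, and their median log2 change was -0.06. Several are of a type that can bind transcripts of more than 1 alpha interferon gene, which lie together on chromosome 4 and resemble each other closely. The lowest change was that of Ifnab, an alpha interferon gene. Its intensities were 192.3, 109.8 and 142.1 in female TAC hearts and 94.1, 136.0 and 157.1 in male TAC hearts, against a lowest of 102.2, a median of 177.8 and a highest of 282.1 in sham hearts. TAC and sham arrays overlapped over most of that range. The average log2 change was -0.35 ± 0.18 SE (95% interval -0.73 to 0.04, adjusted p = 0.711, limma). Ifna2 had 80.1 to 115.7 in TAC hearts and 86.3 to 113.1 in sham hearts, with a change of 0.04 ± 0.11. Ifna5 had a change of 0.14 ± 0.14 and the tested Ifna4 probe set -0.06 ± 0.12. The second Ifna4 probe set, Ifna9, Ifna11 and Ifna15 were not tested, and the highest of them was Ifna4 at 29.8 on a sham array. Ifna7 was 4.31 on female TAC 1 and between 41.6 and 83.1 on all other arrays, so its change of -0.19 ± 0.25 rests on 1 array, and it was 0.14 without that array.

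Among the receptor chains, Ifngr2 and Ifnar1 had the lower averages in TAC hearts. Ifngr2, the signalling chain of the interferon gamma receptor, had 116.0, 137.6 and 102.8 in female TAC hearts and 84.0, 85.2 and 89.5 in male TAC hearts, against 74.6, 125.4 and 138.8 as the lowest, median and highest of the sham hearts. The 3 male TAC arrays lay together in the lower part of the sham range. Its average log2 change was -0.19 ± 0.13 (adjusted p = 0.805, limma). Ifnar1, a chain of the type I receptor, had 19.98, 41.1 and 43.8 in female TAC hearts and 25.8, 38.3 and 30.1 in male TAC hearts, against 26.1, 36.8 and 47.1 in the same order for sham hearts. Female TAC 1 lay clearly below the sham range, male TAC 4 just below it and the others inside it, with a change of -0.26 ± 0.18 (adjusted p = 0.802, limma). Both probe sets for Ifnar2, its partner chain, stayed below the floor on all arrays. Ifngr1, which binds the ligand, had a change of 0.06 ± 0.12 on average, with opposite signs in the sexes, and its values are given with the sexes.

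The STAT factors were well measured, with 6 of 7 probe sets above the floor on every array, and their levels lay close together in TAC and sham hearts. The brighter Stat3 probe set had 234.2, 224.6 and 224.2 in female TAC hearts and 211.6, 198.9 and 249.6 in male TAC hearts, against 221.7, 229.8 and 237.0 as lowest, median and highest in sham hearts. The sham arrays fell inside the span of the TAC arrays. Its average log2 change was -0.04 ± 0.08, with a 95% interval of -0.21 to 0.13, and the second Stat3 probe set gave 0.05 ± 0.14. The smallest p of all members belonged to Stat5a, a factor downstream of growth hormone, prolactin and several cytokines. One of its probe sets had 131.2, 149.9 and 135.2 in female TAC hearts and 136.1, 114.4 and 130.7 in male TAC hearts, against 88.7, 112.7 and 124.4 as lowest, median and highest in sham hearts. Of the 6 TAC arrays, 5 lay above every sham array, and male TAC 5 lay inside the sham range. The change was 0.23 ± 0.09 (95% interval 0.03 to 0.43, unadjusted p = 0.0243, adjusted p = 0.553, limma), and 0.21 ± 0.10 without female TAC 2. The other Stat5a probe set, with 144.4 to 205.4 in TAC hearts and 146.9 to 201.3 in sham hearts, gave 0.05 ± 0.09, a smaller change of the same sign. The difference between the 2 probe sets was not tested. Stat5b, its close relative, had a log2 change of -0.07 ± 0.14. Stat4, which acts in lymphocytes below interleukin 12, had one of -0.15 ± 0.20. Stat6, the interleukin 4 factor, had one of -0.01 ± 0.11, and its sign turned under quantile normalization (0.01) and median centring (0.03).

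The interferon regulatory factors split between 2 that were high on female TAC 2 and others that were not. Irf7, the factor that amplifies type I interferon production, had intensities of 21.4, 82.7 and 18.2 in female TAC hearts and 24.3, 16.5 and 25.5 in male TAC hearts, against 13.99, 20.3 and 29.5 as lowest, median and highest in sham hearts. Only female TAC 2 lay outside the sham range on the high side. The average log2 change was 0.35 ± 0.24 (adjusted p = 0.795, limma) and 0.02 ± 0.11 without that array. A second Irf7 probe set was also highest there, at 43.7 against 10.5 to 32.4 on the other arrays. Irf9, which binds DNA in the type I interferon response, had 6.94, 52.3 and 17.8 in female TAC hearts and 17.9, 12.2 and 22.0 in male TAC hearts, against 14.7, 17.4 and 24.1 in the same order for sham hearts. Female TAC 2 was again the lone high array, and the change of 0.20 ± 0.17 was -0.03 without it. Irf1, induced by interferon gamma, was highest there too, at 106.7, but other arrays reached 104.7, and its change was 0.12 ± 0.10. Irf5, Irf8 and Irf4 were not highest on female TAC 2. Irf4, a factor of lymphocytes, had 43.0, 104.7 and 116.1 in female TAC hearts and 129.9, 108.2 and 95.2 in male TAC hearts, against 96.6, 117.0 and 123.3 in the same order for sham hearts. Female TAC 1 stood low, and the change was -0.27 ± 0.17 (adjusted p = 0.780, limma). Irf8, a factor of myeloid cells, had -0.03 ± 0.13, a sign that turned under quantile normalization (0.01) and median centring (0.01). Irf5 had -0.09 ± 0.13. Neither Irf3 probe set was bright enough to be tested.

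The families that interferons induce most held most of the members that were high on female TAC 2. Promoter stretches of 4 of these genes are shown because they carry the letters of the interferon-stimulated response element. The motif searched was GAAA, any 2 bases and GAAA again, which reads as TTTC, any 2 bases and TTTC on the other strand, in windows of 250 bases before to 50 bases after each transcription start from RefSeq (build GRCm38.p6). Capitals mark the motif, overlapping matches merged, on the + strand.
Ifit1, chr19:34640765-34640853: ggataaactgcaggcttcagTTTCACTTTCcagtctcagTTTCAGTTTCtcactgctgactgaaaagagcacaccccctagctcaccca
Ifit3, chr19:34583353-34583456: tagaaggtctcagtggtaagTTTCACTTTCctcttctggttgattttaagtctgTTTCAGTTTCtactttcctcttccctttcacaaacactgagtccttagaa
Gbp3, chr3:142559979-142560043: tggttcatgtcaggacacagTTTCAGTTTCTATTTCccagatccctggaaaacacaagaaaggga
Gbp7, chr3:142530263-142530332: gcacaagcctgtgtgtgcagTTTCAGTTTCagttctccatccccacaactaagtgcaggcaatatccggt

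The motif lay 104 to 76 bases before the start in Ifit1, 156 to 113 in Ifit3, 45 to 30 in Gbp3 and 53 to 44 in Gbp7, counting from the first to the last capital. It was present in 19 of 57 promoter windows of the members (33.3%), against 3.44% of all 32851 windows. RefSeq windows were found for 45 of the 51 genes. By family, 4 of 5 windows of the guanylate-binding proteins held it, 7 of 8 of the interferons and 2 of 5 of the OAS, Mx and Isg genes. None of 10 of the Irf genes and none of 4 of the receptor chains did. The 2 were those of Isg15 and Oas1g, which passed the floor on no array. No interferon probe set was highest on female TAC 2. Of the 8 windows of the genes that reached 2 times the median of the other arrays on female TAC 2, 4 held it, those of Gbp3, Gbp7, Ifit1 and Ifitm3, and the windows of Irf7 and Irf9 did not. In Ifitm3 the matches lay after the start. The shorter letters of the gamma-activated site, TTCNNNGAA, which read alike on both strands, were in 28.1% of the members' windows and 8.30% of all windows. These matches describe letters, not binding, and a link between the motif and the values on female TAC 2 was not tested.

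Ifitm3 was the member with the highest average change. It encodes a membrane protein that keeps viruses from entering the cytosol. Its intensities were 88.1, 452.5 and 94.5 in female TAC hearts and 103.5, 106.4 and 121.8 in male TAC hearts, against 47.8, 89.3 and 98.5 as lowest, median and highest in sham hearts. Female TAC 2 was 3.72 times the next highest array. The 3 male TAC arrays also lay above every sham array, by a narrow margin, whereas the other female TAC arrays lay inside the sham range. The means were 161.1 ± 143.2 (SD, n = 6) in TAC hearts and 82.1 ± 16.8 (SD, n = 9) in sham hearts. The average log2 change was 0.66 ± 0.28 (95% interval 0.06 to 1.26, unadjusted p = 0.0336, adjusted p = 0.598, limma), and 0.27 ± 0.15 (adjusted p = 0.676, limma) without female TAC 2. The other IFITM genes did not share the pattern. Ifitm1 and Ifitm2, its neighbours in the same cluster on chromosome 7, had 37.2 and 55.9 on female TAC 2, within the range of their other arrays, and changes of -0.09 ± 0.18 and 0.06 ± 0.15. Ifitm6 had -0.13 ± 0.13. Ifitm10 had 0.16 ± 0.13.

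The IFIT genes encode proteins that bind viral RNA and block its translation. Ifit1 had 0.488, 90.9 and 0 in female TAC hearts and 0, 3.81 and 8.64 in male TAC hearts, against a lowest and a median of 0 and a highest of 8.62 in sham hearts. Every array but female TAC 2 lay below the floor, and that array was at 4.55 times the floor. Ifit3 and Ifit2 were too dim to be tested. Ifit3 had 38.3 on female TAC 2 and 0 to 16.6 on the other arrays. Ifit2 had 27.6 there and 0 to 0.317 elsewhere. Both were thus above the floor on that array alone, as was Ifi27l2a, another interferon-induced gene, at 22.0 against at most 6.51.

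The guanylate-binding proteins are large GTPases that attack the vacuoles of intracellular microbes and are induced strongly by interferon gamma. All 4 probe sets were tested, and 3 of them were above the floor on only some arrays. All 4 had a higher average in TAC hearts, against 41.8% of all tested probe sets. All 4 were highest on female TAC 2, against 17.9% of all tested probe sets. Gbp3 had 23.5, 67.3 and 16.2 in female TAC hearts and 26.8, 32.2 and 20.9 in male TAC hearts, against 17.8, 23.5 and 33.0 as lowest, median and highest in sham hearts. Apart from female TAC 2 no TAC array lay above the sham range. Gbp7 had 12.9, 45.9 and 10.9 in female TAC hearts and 26.3, 14.98 and 17.1 in male TAC hearts, against 8.70, 12.1 and 23.4 in the same order for sham hearts. Here male TAC 4 also passed the highest sham array. The median log2 change of the 4 was 0.18, and 0.03 without female TAC 2, where 3 were higher and 1 lower. Gbp2 on that array had 40.5, against 7.11 to 31.9 on the others, and Gbp2b had 87.7, against 49.5 to 80.5.

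**Figure D3:**
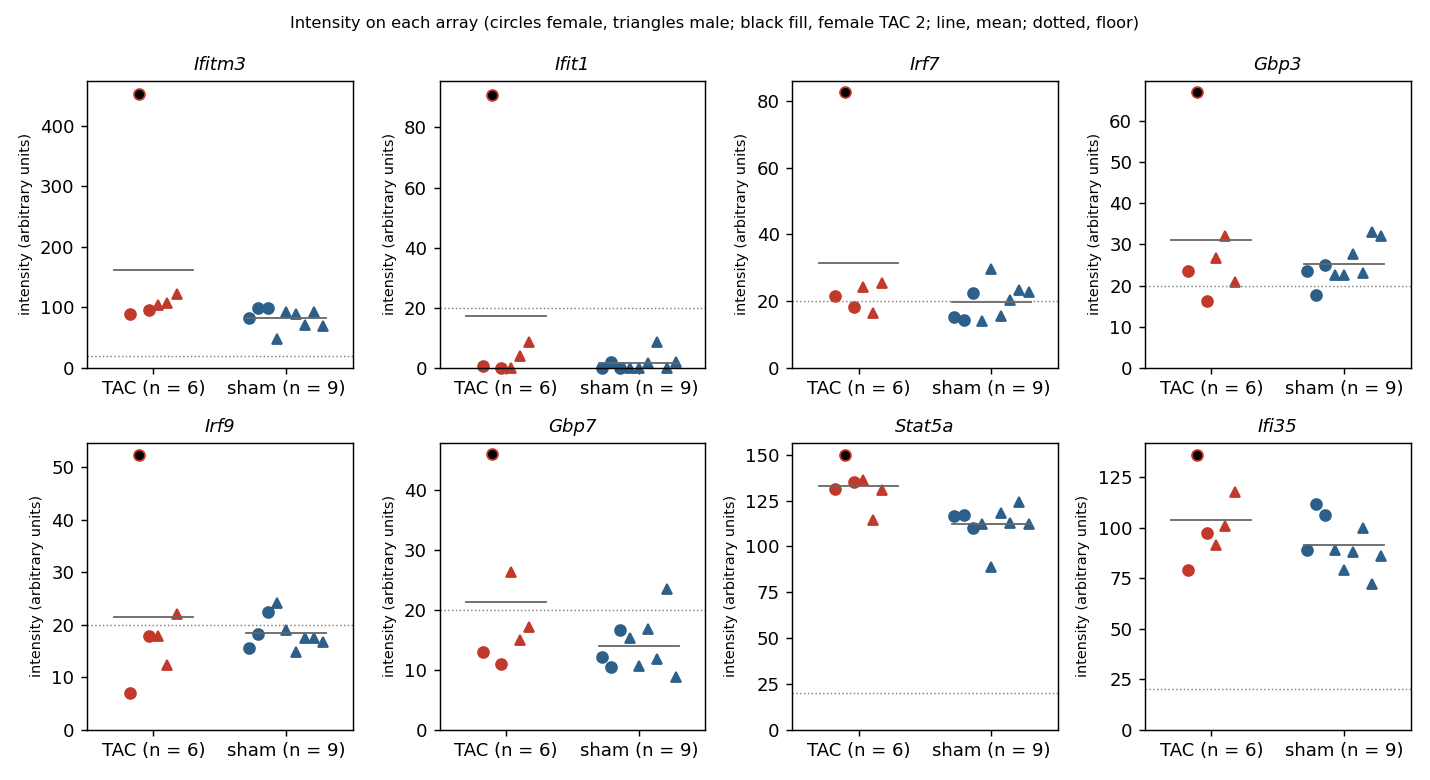
Intensity of 8 members on each array, with the 6 TAC arrays (red) left of the 9 sham arrays (blue), circles for females, triangles for males, a black filling for female TAC 2, a line at each group mean and a dotted line at the floor; each panel has its own linear axis. The black point lies at 452.5 for Ifitm3, 90.9 for Ifit1, 82.7 for Irf7, 67.3 for Gbp3, 52.3 for Irf9 and 45.9 for Gbp7, above all others, and it is less far from them for Stat5a (149.9) and Ifi35 (136.0).

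Ifi35, which encodes a partner of the Nmi protein and is a marker of the interferon response, had 78.8, 136.0 and 97.2 in female TAC hearts and 91.5, 100.9 and 117.4 in male TAC hearts, against 72.2, 88.8 and 111.4 as lowest, median and highest in sham hearts. It was above the floor on all arrays and highest on female TAC 2, with male TAC 6 next. Its average change was 0.13 ± 0.12 (95% interval -0.13 to 0.39, adjusted p = 0.866, limma). Isg20, an exonuclease that degrades viral RNA, had 20.4, 44.7 and 29.1 in female TAC hearts and 20.02, 24.1 and 26.1 in male TAC hearts, against 21.7, 31.3 and 43.6 in the same order for sham hearts. Female TAC 2 was the highest array, and the other TAC arrays lay in the lower part of the sham range or just under it. The change was -0.26 ± 0.16 with all arrays and -0.40 ± 0.14 (unadjusted p = 0.0104, adjusted p = 0.405, limma) without female TAC 2. Ifi27 had -0.18 ± 0.15. Ifi209, the tested gene of the Ifi200 family of DNA sensors and their relatives, had 0.01 ± 0.14. The other 5 probe sets of that family, for Ifi202b, Ifi204 and Ifi207, were too dim to be tested and reached 23.9 at most, for Ifi207 on female TAC 3. The antiviral genes Mx1, Mx2 and Oas1g and the genes Ifi30 and Ifi47 never passed the floor. Isg15, the ubiquitin-like protein gene, was listed at 0 on all 15 arrays, which is a value that can be a failed estimate, so it gives no level.

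Seen across arrays, female TAC 2 was the highest of the 15 for 14 of the 36 tested members, against 17.9% of all tested probe sets, and the next array for all tested probe sets stood at 8.78%. The array had the highest median intensity, 26.7, with female sham 3 close behind at 26.3. With quantile-normalized intensities female TAC 2 was highest for 9 members and 10.9% of all tested probe sets, where male sham 7 stood at 11.7%. The members at 2 times or more on female TAC 2 were again 7, against 0.751%. The 7 were Ifitm3, Ifit1, both Irf7 probe sets, Gbp3, Irf9 and Gbp7. The mean correlation of female TAC 2 with the other arrays over all tested probe sets was 0.938, where the arrays spanned 0.936 to 0.957. Other interferon-induced genes, listed outside the name rule, were high there in part. Of 29 such genes on the array 18 were tested, and female TAC 2 was the highest array for 11 of these. Ly6e, a surface protein induced by type I interferon, had 1218 there and 272.6 to 405.1 elsewhere. Usp18, the protease that removes Isg15 from proteins, had 67.3 against at most 31.9. Irgm2, an immunity-related GTPase, had 63.1 against 15.4 to 40.01. Sp100, by contrast, was lowest on female TAC 2, at 23.4 against 26.0 to 65.8. In the averaged TAC comparison 9 of the 18 were higher and 9 lower, the median was 0.00, and 0 were called by limma, with 2 under an unadjusted p of 0.05, against 7.51% of all. Those were Sp100 and Pml, genes of nuclear body proteins, both lower on average in TAC hearts, with log2 changes of -0.52 ± 0.16 (adjusted p = 0.320, limma) and -0.29 ± 0.13 (adjusted p = 0.649, limma).

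**Figure D4:**
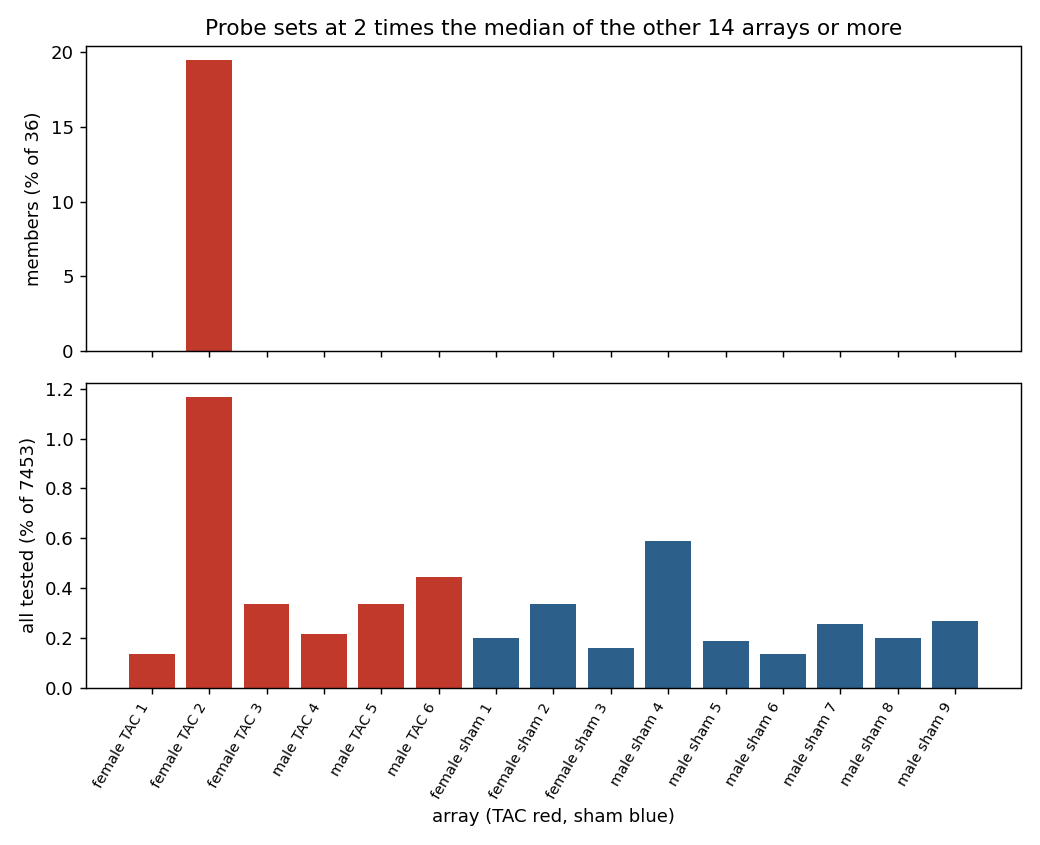
For each array, TAC (red) left and sham (blue) right, the percentage of the 36 tested members (upper bars) and of all 7453 tested probe sets (lower bars, on an axis of their own) at 2 times or more the median of the other arrays. Intensities were floored at 20 first. Members stood at 19.4% on female TAC 2 and at 0 on every other array, and all tested probe sets stood at 1.17% on female TAC 2 and at most 0.590% elsewhere.

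Markers of some other cells were high on that array and those of others were not. The summed intensity of 18 macrophage and leukocyte markers was 969.8 on female TAC 2 and 652.7 to 840.2 on the other arrays, and C1qa, a complement gene of macrophages, was at 201.8 against 61.5 to 142.4. Of the 10 tested markers of that list 5 were highest on female TAC 2, against 17.9% of all tested probe sets: C1qa, C1qb, C1qc, Laptm5 and Coro1a. The other 5, Cd68, Csf1r, Itgb2, Lyz2 and Cd14, were not, and Cd68 was at 31.1 there against 28.6 to 52.2. By group that sum ran from 652.7 to 969.8 on TAC arrays and from 687.2 to 840.2 on sham arrays. Of the 18 markers 8 were below the floor on all arrays, among them Ptprc, Itgam and Adgre1, and Adgre1 was at 0 on female TAC 2. The 10 lymphocyte markers on the array summed to 588.0 on female TAC 2 and 431.6 to 573.3 on the others, where Cd3d and Cd2 were at 0 on female TAC 2. By group they summed to 431.6 to 588.0 on TAC arrays and 464.9 to 573.3 on sham arrays. The 8 fibroblast markers summed to 2291 on female TAC 2 and 1109 to 1940 on the others. By group this was 1463 to 2291 on TAC arrays and 1109 to 1536 on sham arrays. Of the 7 tested fibroblast markers 5 were highest on female TAC 2, and 2 of the 8 reached 2 times the median of the other arrays. These counts use 1 probe set per gene. For Col1a2 that was the brighter one, at 1.14 times. The other Col1a2 probe set was at 2.87 times, with 183.9 on female TAC 2 and 42.8 to 111.1 elsewhere. The 9 endothelial markers summed to 501.7 to 748.7 on TAC arrays and 471.5 to 694.3 on sham arrays, with 715.8 on female TAC 2, and the 4 smooth muscle markers to 81.6 to 146.6 on TAC arrays and 112.1 to 152.1 on sham arrays, with 98.0 on female TAC 2, the second lowest array. The cardiomyocyte markers summed to 30459 there, which ranked 11 of 15. No marker of these lists was called by limma. At an unadjusted p under 0.05 there were 4 of 7 tested fibroblast markers and 1 of 7 cardiomyocyte markers, against 7.51% of all tested probe sets. None of the other markers reached it. Of the 7 fibroblast markers 6 were higher in TAC hearts, with a median log2 change of 0.38 and a smallest adjusted p of 0.0585 (limma). The lower one was the counted Col1a2 probe set, at -0.03. The part of these cells in the interferon pattern was not tested. Nppa was at 2549 on female TAC 2 and 111.5 to 2117 elsewhere. Its ratio there to the median of the other arrays, 8.64, was the highest of all tested probe sets. Postn, the periostin gene, had rank 2 (4.93), Ifitm3 rank 3 (4.92), Ifit1 rank 4 (4.55) and Acta1 rank 5 (4.12). Acta1 was higher on another array, at 4042. Most of the other arrays were sham arrays. Nppa and Acta1 lay higher on every TAC array than on any sham array, so their ratios include the TAC change. The ranks of these 2 genes therefore do not describe female TAC 2 alone. Postn was at 161.9 on female TAC 2 and at most 79.6 on any other array, TAC or sham. High values on female TAC 2 were thus not confined to interferon genes, though Nppa and Acta1 are weak examples of this.

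The remaining genes of the pathway, from receptor kinases to antigen presentation, showed no TAC effect that passed the test. Of 17 tested genes of JAK-STAT signalling and its inhibitors, 10 were higher and 7 lower in TAC hearts, limma called 0 of them, and 1 passed an unadjusted p of 0.05, against 7.51% of all. That gene was Il6st, the gp130 receptor chain shared by the interleukin 6 family, with 46.9 to 55.3 in TAC hearts and 22.3 to 51.2 in sham hearts, a change of 0.34 ± 0.15 (adjusted p = 0.598, limma). The kinases Jak1 and Tyk2 had 0.05 ± 0.09 and 0.12 ± 0.12. The feedback inhibitors Socs1 and Socs3 had -0.25 ± 0.19 and 0.05 ± 0.15. Female TAC 2 was the highest array for none of these 17, against 17.9% of all tested probe sets. Of 12 tested genes of MHC class I presentation 7 were higher, 5 lower and 0 called, with 1 under an unadjusted p of 0.05, against 7.51% of all. That was Psme1, a proteasome activator subunit, at -0.36 ± 0.11 (adjusted p = 0.340, limma). On female TAC 2, 4 of the 12 were highest, against 17.9% of all tested probe sets. Among them were H2-D1, a class I heavy chain, at 496.0 against 213.0 to 466.6, and Tapbp, which loads peptides, at 148.6 against 69.5 to 116.6. The others were Psmb8 and Pdia3, and the untested Psmb9 was highest there too. B2m, the light chain of class I molecules, was 2.41 times the median of the other arrays on female TAC 2, at 384.9, but a sham array reached 394.2. Of 6 tested pattern recognition genes that act upstream of interferon 3 were higher, 3 lower and 0 called, against 0.322% of all. At an unadjusted p under 0.05 (limma) there were 0, against 7.51% of all, and at such shares 0 of 6 says little.

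Within each sex no member passed the test either. In females 19 tested members were higher and 17 lower in TAC hearts, the median was 0.05 and 0 were called, against 0.0805% of all tested probe sets, with 0 members under an unadjusted p of 0.05, against 4.59%. Without female TAC 3 there were 10 such members (5.90% of all tested probe sets), without female TAC 1 there were 6 (4.51%), without female TAC 2 there were 2 (7.37%), and without female sham 1 or male sham 5 there was 1. With median centring there were 5 (5.49%), and with an offset 2 (4.80%). None of them was called. In males 19 were higher and 16 lower, 0 were called, against 0.134% of all, and 1 was under an unadjusted p of 0.05, against 6.2%. That was Ifnab, at -0.66 ± 0.24 in males (adjusted p = 0.605, limma) and -0.03 ± 0.27 in females. The male count was 2 without female TAC 2, male TAC 5 or male sham 8, and 0 without male TAC 4. For Ifitm3 the change was 0.75 ± 0.43 in females and 0.56 ± 0.37 in males, and without female TAC 2 the female value was -0.02 ± 0.24 and the male value 0.56 ± 0.18 (adjusted p = 0.525, limma). The TAC effect in females set against that in males was called for no member and for no probe set at all. At an unadjusted p under 0.05 there was 1 member, Ifngr1 (limma), against 2.56% of all tested probe sets. Ifngr1 had 67.1, 74.9 and 45.7 in female TAC hearts, against 44.8, 50.5 and 51.6 in female sham hearts, so 2 of the 3 TAC arrays lay above all 3 sham arrays. In males it had 47.4, 58.0 and 48.2 in TAC hearts, against 48.8 to 65.5 in sham hearts. The TAC change in females minus that in males was 0.52 ± 0.23 (unadjusted p = 0.0372, adjusted p = 1.00, limma). Female minus male among sham hearts was likewise called for no member and no probe set by limma. At an unadjusted p under 0.05 there were 2 members, against 4.71% of all tested probe sets. They were Irf8 at -0.47 ± 0.17 and Ifi27 at -0.41 ± 0.19 (adjusted p = 0.974 for both, limma). Irf8 had 50.5, 36.4 and 70.0 in female sham hearts, against 61.4 to 76.9 in male sham hearts, so the groups overlapped at 1 female array.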

How the data were processed

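Total RNA of mouse left ventricle was hybridized to 15 oligonucleotide arrays with 12488 probe sets, of which 66 were controls. The deposited values are linear intensities as the authors made them, 8722 of them exactly 0; software and scaling: not given in the sources used here. Groups came from the sex and operation in the labels. Intensities were floored at 20, log2 was taken, and the 60% of non-control probe sets with the highest mean were tested. The floor shrinks changes of dim genes. limma 3.58.1 in R 4.3.3 fitted a mean for each of the 4 groups to all 15 arrays, with Benjamini-Hochberg adjustment over all tested probe sets. A probe set was called at an adjusted p under 0.05, and ± gives the SE where SD is not named. The averaged change is the mean of the female and the male change. The method was tested on simulated data. Symbols came from the platform annotation, updated through a RefSeq table of GRCm38.p6 used for names and promoter windows. Where a listed gene had several probe sets, the tested one with the highest mean was used. Named genes were Ifi35, all tested interferons, receptor chains, STAT and Irf probe sets, the 10 members with the smallest p, and the listed genes with the smallest p; others were named after their values were seen. The members and lists were chosen with earlier results of these data known. Alternatives were other scalings, floors, filters, models, array weights, the replicate number as a block and leaving out each array.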

Additional observations from a re-analysis of the deposited data

Results flagged for a closer look

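Each member that exceeded the floor in a group was checked for an array far from the others of its group, 81 checks in all, and 12 stood apart by Dixon's criterion, which chance alone meets in about 1 of 20. Over all non-control probe sets the same check found 8.71% of groups apart, against 14.8% for the members. Ifit1, Ifit2, Ifit3 and Ifi27l2a entered the check only through the array where they were high. Among groups with at least 2 arrays above the floor, 8 of 71 stood apart for the members (11.3%), against 7.43% of all probe sets. Female TAC 2 was the high array in 5 of those 8, against 190 of 1153 over all probe sets. Without that limit the count over all probe sets was 217 of 1478. In 9 of the 12 the array was female TAC 2, the highest of the 6 TAC arrays: Ifitm3 at 452.5, Ifit1 at 90.9, Irf7 at 82.7, Gbp3 at 67.3, Irf9 at 52.3, Isg20 at 44.7, Ifit3 at 38.3, Ifit2 at 27.6 and Ifi27l2a at 22.0. The next TAC array for these genes was 121.8 for Ifitm3, 8.64 for Ifit1, 25.5 for Irf7, 32.2 for Gbp3, 22.0 for Irf9, 29.1 for Isg20, 7.90 for Ifit3, 0 for Ifit2 and 6.51 for Ifi27l2a. Ifna7 on female TAC 1 was 4.31, far below the next TAC array at 58.1. Among the 9 sham arrays, Stat5a was 88.7 on male sham 5, against 110.1 on the next, and the second Irf7 probe set was 32.4 on female sham 1, against 22.1 on the next.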

How the results depend on the processing

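The number of members called stayed 0 in all 5 comparisons under every setting run. Over the alternatives the smallest adjusted p of a member for the averaged effect ran from 0.285 (array weights) to 0.742 (leaving out an array). TAC and sham arrays of the same number deviated together with correlations of 0.244, 0.270 and 0.117 in females and 0.0641, -0.0828 and 0.0136 in males, so only the female numbers passed 0.1. Each female TAC array and male TAC 4 correlated best with its own number, and male TAC 5 and 6 did not. Since not every pair passed, the numbers were not taken as pairs. The replicate block gave 8 calls over all probe sets against 24, and 0 members called, as without it; it allows no value for female minus male sham. Calls over all probe sets for the averaged effect were 44 with quantile normalization, 42 with median centring, 10 with a floor at the 10th percentile, 31 with an offset, 13 without the filter, 68 with array weights, 29 with the additive model, 33 without sex, and 12 to 29 when an array was left out (15 without female TAC 2). The median of the members for the averaged effect was -0.029 with the stricter filter, which tested 23 members. In females it lay between 0.00 and 0.13 when an array was left out, with 0.13 without female TAC 1.

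For the named genes and the count on female TAC 2, 658 repeats kept direction and side of the threshold, 32 turned sign and 1 (Ifit1 without female TAC 2) was 0; the cause was not tested. With array weights the log2 change was -0.014 for the second Stat3 probe set, 0.077 for Stat4, 0.030 for Stat5b, 0.065 for Stat6, -0.079 for Ifngr1 and 0.040 for Ifna7. With the replicate block it was 0.0038 for Stat6, 0.0062 for Irf5 and 0.019 for Ifna4. With quantile normalization it was 0.010 for Stat6 and 0.0051 for Irf8, and with median centring 0.032 for Stat6 and 0.0084 for Irf8. The additive model gave 0.00033 for Stat6, and the floor at the 10th percentile gave -0.043 for Irf9. Leaving out an array, changes ranged from -0.021 to 0.11 for the second Stat3 probe set, -0.069 to 0.034 for Stat6, -0.0088 to 0.17 for Ifngr1, -0.15 to 0.089 for Irf8, -0.027 to 0.32 for Irf9, -0.013 to 0.12 for Ifna2, -0.14 to 0.0055 for Ifna4, -0.37 to 0.14 for Ifna7 and 0 to 0.55 for Ifit1. With a limit of 1.5 times in place of 2, chosen after seeing the data, 10 tested members were high on female TAC 2, against 7.39% of all tested probe sets. Few arrays, no stated batch and signals near the floor limit the precision, and 23 members could not be tested.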
